A study of Mus musculus with 12 samples.

Results

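Kainate and delta receptor transcripts were followed in the brains of 12 mice. The 8 genes described are Grik1, Grik2, Grik3, Grik4, Grik5, Grid1, Neto1, and Neto2, which were chosen by name, and each of the 8 was found among the 19312 genes of the deposited table. The mice were male C57BL/6N mice at postnatal day 25, wild-type (WT) or homozygous for a Shank2 deletion (KO), and were given memantine or vehicle, which makes 4 groups of 3 mice: vehicle-treated WT-Veh and KO-Veh mice and memantine-treated WT-Mem and KO-Mem mice. Memantine was given by mouth at 20 mg/kg, 2 times a day from postnatal day 7 to 21, in 0.1% saccharin, and the vehicle was 0.1% saccharin alone, so that all 4 groups received saccharin. The KO line carries a germline deletion of exons of Shank2, which encodes a scaffold protein of excitatory synapses, so that all cells are affected, and memantine is a channel blocker of NMDA-type glutamate receptors. The brains were not pooled. The sample labels name whole brain, whereas the methods describe forebrain with the cerebellum and the brain stem beneath it removed.

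Kainate receptors are tetrameric cation channels gated by glutamate. GluK1, GluK2, and GluK3 (from Grik1, Grik2, and Grik3) can form channels on their own, and GluK4 and GluK5 (from Grik4 and Grik5) bind kainate with higher affinity and reach the surface together with one of the first set. They act on both sides of the synapse, and the mossy fiber synapse onto hippocampal CA3 pyramidal cells is the best known site, where GluK2, GluK4, and GluK5 are present. Neto1 and Neto2 encode auxiliary proteins that slow the gating of kainate receptors. Grid1 encodes GluD1, a delta receptor that belongs to the same family by sequence and forms a bridge across the synapse through secreted cerebellins and presynaptic neurexins.

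Per mouse, the sum of the normalized read counts lay between 30373849 and 31199251. Shank2, the deleted gene, was at 7156 to 8548 in the 6 WT mice and at 2706 to 3178 in the 6 KO mice, which is -1.45 on the log2 scale (SE 0.06, limma, adjusted p = 6.01e-09), as the labels would have it. Cerebellar transcripts were present in KO-Veh replicate 3, where Gabra6, the defining subunit of cerebellar granule cell GABA receptors, was at 253.9 and Pcp2, a Purkinje cell gene, at 379.7. In the other mice Gabra6 lay between 0 and 12.9 and Pcp2 between 7 and 21.5. The summed level of the 4 cerebellar markers was 2185 in that mouse and from 252.4 to 442.7 in the others.

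Among the 8 transcripts, Grik4 was the one that passed the test for a genotype difference across all genes. The values are normalized read counts, that is, estimated counts per gene divided by factors that make the mice comparable. In WT-Veh mice, Grik4 (ENSMUSG00000032017, GRCm38 chromosome 9, 42518135 to 42944493, minus strand, 2 annotated transcripts) had normalized counts of 949.5, 864.8, and 876. In KO-Veh mice, the values were 1140, 1077, and 1169. They were 946.3, 987.6, and 1047 in WT-Mem mice and 1343, 1246, and 1048 in KO-Mem mice. Each of the KO mice thus lay above each of the WT mice, although KO-Mem replicate 3 (1048) and WT-Mem replicate 3 (1047) were nearly equal. The group means were 896.8 ± 46.04 for WT-Veh and 993.6 ± 50.49 for WT-Mem, and 1128 ± 47.09 for KO-Veh and 1212 ± 150.3 for KO-Mem mice (SD, n = 3 each).

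Averaged over vehicle and memantine and fitted on all 12 mice with limma, Grik4 was higher in KO mice by 0.31 on the log2 scale (SE 0.06, 95% CI 0.17 to 0.44, adjusted p = 0.0138 from limma), which is 1.24-fold. Adjusted p-values are Benjamini-Hochberg values over all genes tested. Calling a gene requires one below 0.05 and no minimum fold change. By its p-value, Grik4 was number 312 of 17655 genes. The genotype comparison called 10.5% of all genes tested (845 higher, which is 4.79%, and 1011 lower in KO mice) and 1 of the 8 genes described here, so that the share of the group is close to the background. Unadjusted p-values were under 0.05 for 2 of the 8, Grik4 and Grik5, against 29.4% of all genes. The KO mice (6) were separated from the WT mice (6) in 4.06% of all genes tested, 1.86% with the KO mice higher, and among the 8 in Grik4 alone. Over 12 fits that each left out 1 mouse, the log2 fold change of Grik4 stayed between 0.27 and 0.36 and its adjusted p-value from limma between 0.00123 and 0.0442.

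**Figure D1:**
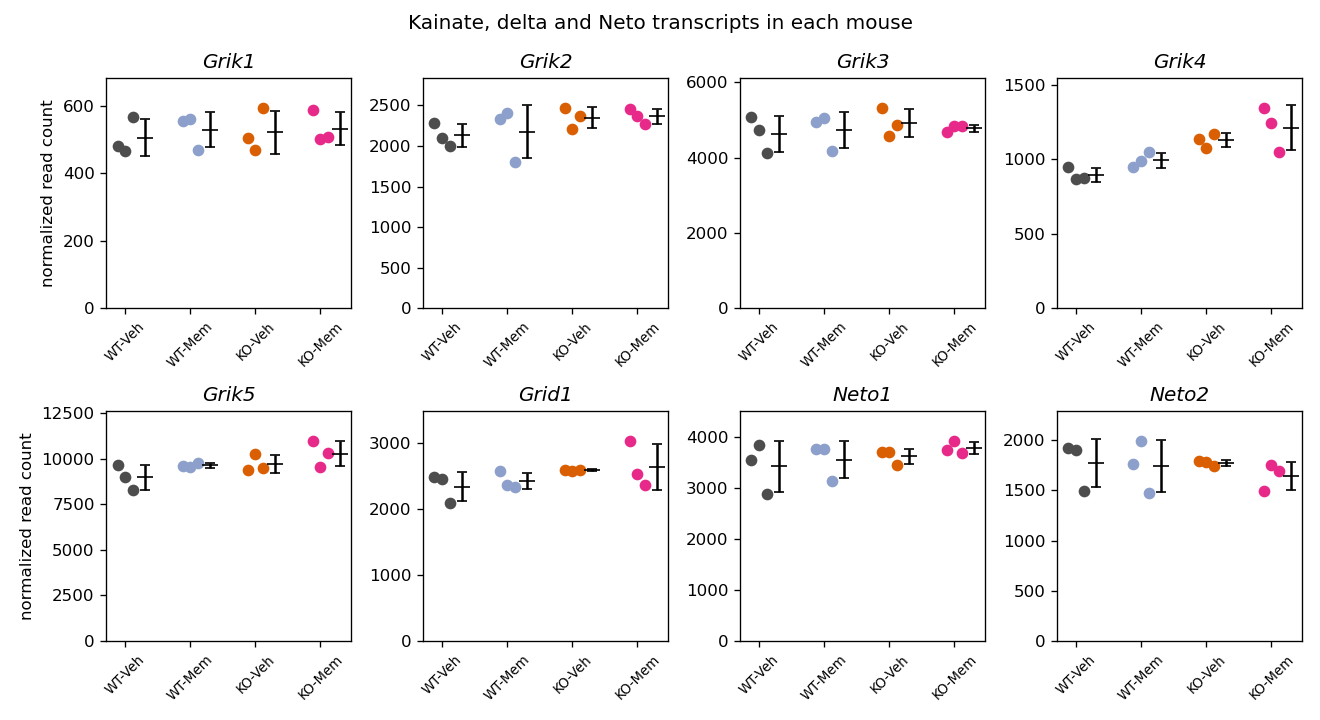
Normalized read counts (y axes, from 0) of the 8 genes in each of the 12 mice. Colored points are mice, with the 3 mice of a group side by side, and black marks give the group mean with its SD. In the Grik4 panel, the KO mice (1048 to 1343) lie above the WT mice (864.8 to 1047), and in the other panels the KO and WT mice overlap.

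**Figure D2:**
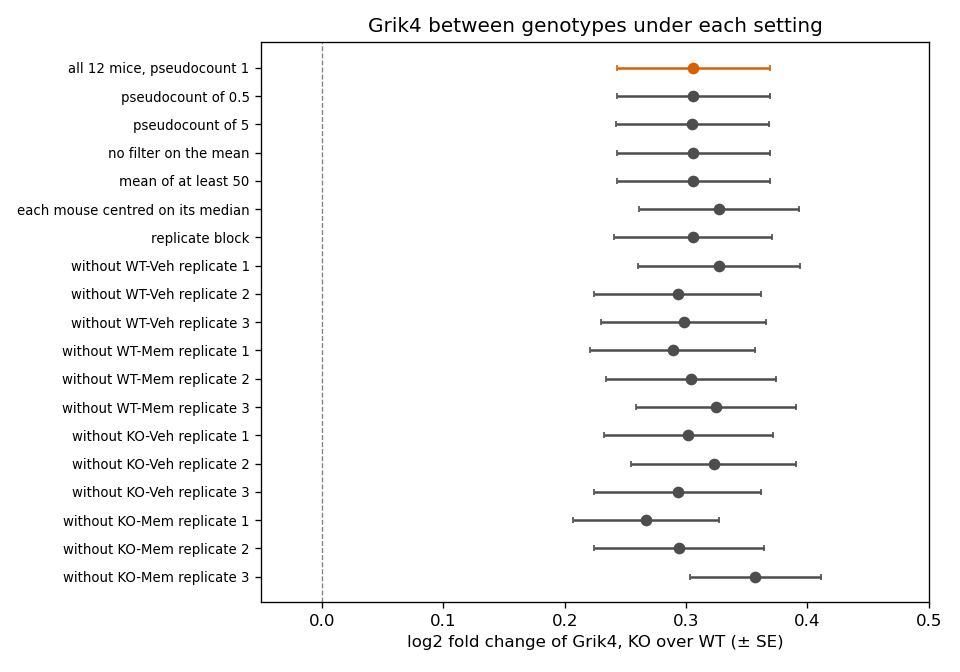
Log2 fold change of Grik4 between KO and WT mice over both treatments (x axis, bars are the SE) in the fit on all 12 mice (orange), under other settings of the analysis, and with each mouse left out (grey). The values run from 0.27 to 0.36.

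Single mice bore on the number of genes called more than on Grik4. Without KO-Veh replicate 3, the genotype difference of Grik4 was 0.29 on the log2 scale (adjusted p = 0.0442 from limma), whereas the number of genes called fell from 1856 to 528. Removing KO-Mem replicate 3 raised the number to 3263 and the difference of Grik4 to 0.36 (adjusted p = 0.00123 from limma).

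Cell type markers moved with genotype as well. Counts of called markers are read against the 10.5% of all genes called between genotypes. Of the 4 oligodendrocyte markers, 3 were called lower in KO mice, Mog and Cnp among them, and 0 had a log2 fold change above 0. The summed level of this list ran from 245600 to 342000 in WT and from 197000 to 254400 in KO mice. All 3 endothelial markers were called lower in KO mice, with a summed level of 3682 to 4474 in WT and 3090 to 3788 in KO mice. Of the 4 astrocyte markers, 1 was called lower and 1 had a log2 fold change above 0. Of the 4 microglial markers, 1 was called lower and 0 had a log2 fold change above 0. Of the 6 interneuron markers, 2 were called higher and 1 lower, with 3 log2 fold changes above 0. Of the 3 CA1 markers, 1 was called higher. None of the markers of excitatory neurons (4), dentate gyrus granule cells (4), striatal neurons (4), thalamus (3), cerebellum (4), oligodendrocyte precursors (2), or choroid plexus (3) was called with limma. The part of these shifts in the difference of Grik4 was not tested. In bulk tissue, more cells that express a gene and more RNA per cell cannot be told apart. The 3 markers of the CA3 field, where Grik4 is strongly expressed, were not called, with log2 fold changes of 0.06 for Bok, -0.08 for Cpne4, and 0.10 for Iyd. Iyd was low, with a mean of 29.04 and an SE of 0.19 on the log2 scale. The summed level of the 3 was 2329 to 2676 in WT and 2270 to 2488 in KO mice, and Cpne4 had the highest mean in it, 1682. Whether the CA3 content of the samples was equal was not tested. The 4 excitatory neuron markers were not called either, with log2 fold changes of 0.01 for Slc17a7, 0.05 for Camk2a, -0.03 for Tbr1, and -0.20 for Neurod6 (adjusted p = 0.0743 from limma).

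The bases upstream of Grik4 and of Grik5, the genes of the high-affinity subunits, are shown because Grik4 was called and Grik5 was not. They are the parts of the RefSeq windows of GRCm38.p6 that lie before every annotated start, given from 5′ to 3′ on the strand of the gene, at chr9:42944494-42944621 (128 bases) for Grik4 and chr7:25072370-25072619 (250 bases) for Grik5. Capitals mark matches to the GC box GGGCGG, searched on both strands.
Grik4: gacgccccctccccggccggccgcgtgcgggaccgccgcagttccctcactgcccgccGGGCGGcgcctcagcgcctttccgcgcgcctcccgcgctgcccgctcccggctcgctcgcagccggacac
Grik5: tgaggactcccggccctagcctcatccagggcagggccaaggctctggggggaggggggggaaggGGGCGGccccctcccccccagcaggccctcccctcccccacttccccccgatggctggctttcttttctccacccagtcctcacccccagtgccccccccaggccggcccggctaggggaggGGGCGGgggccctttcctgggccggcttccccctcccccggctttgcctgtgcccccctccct
Both stretches are rich in G and C, but they differ in how often the CpG dinucleotide occurs. In the 250 bases before the RefSeq start, Grik4 has 36 CpG, more than 97.4% of the 32851 windows, and Grik5 has 8, more than 57% of them, against a median of 6. For Grik4, the 128 bases shown hold 23 CpG, and the rest of the 250 lie within the annotated gene. All 250 bases of Grik5 lie before every annotated start. The GC box was found 1 time before Grik4 and 2 times before Grik5, and 32.7% of all windows hold it. The TATA box TATAAA, on either strand, is in neither window and in 12.4% of all windows. The half-site of the cAMP response element, TGACG, is in neither and in 17.8% of all. The E-box CANNTG is in neither and in 66.2% of all. These are matches of letters and say nothing about binding. Windows were matched for 5 of the 8 genes.

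None of the core subunit genes was called between genotypes. For Grik1 (ENSMUSG00000022935, chromosome 16, 87895900 to 88290265), which encodes GluK1 and is used by many inhibitory interneurons, normalized counts ran from 467.3 to 568.7 in WT-Veh, 470.6 to 562.2 in WT-Mem, 469.8 to 593 in KO-Veh, and 501.2 to 588.6 in KO-Mem mice. The ranges of the 4 groups lay almost on top of each other, and the genotype difference was 0.03 on the log2 scale (95% CI -0.15 to 0.20, adjusted p = 0.867 from limma). The highest value of Grik1, 593, was that of KO-Veh replicate 3, the mouse with the cerebellar transcripts. The next, 588.6, was that of KO-Mem replicate 1, which had the lowest summed level of cerebellar markers (252.4). A link between Grik1 and cerebellar tissue was not tested. Without KO-Veh replicate 3 the difference was -0.02. For Grik2 (ENSMUSG00000056073, chromosome 10, 49094833 to 49788766), which encodes GluK2, the values were 2288, 2103, and 2001 for WT-Veh and 2328, 2406, and 1801 for WT-Mem mice. The KO-Veh mice had 2464, 2206, and 2372 and the KO-Mem mice 2457, 2375, and 2266. WT-Mem replicate 3 was the lowest. WT-Veh replicates 2 and 3 also lay below each of the KO mice, and the remaining WT mice lay within the KO range (2206 to 2464). The genotype difference of Grik2 was 0.14 (95% CI -0.01 to 0.28, adjusted p = 0.203 from limma). Grik3 (ENSMUSG00000001985, chromosome 4, 125490700 to 125714173), which encodes GluK3, ran from 4120 to 5068 in WT-Veh, 4180 to 5051 in WT-Mem, 4581 to 5305 in KO-Veh, and 4669 to 4833 in KO-Mem mice, a genotype difference of 0.05 (95% CI -0.08 to 0.19, adjusted p = 0.591 from limma).

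Grik5 (ENSMUSG00000003378, chromosome 7, 25009849 to 25072346), which encodes the high-affinity subunit GluK5, was not called, and whether its difference was smaller than that of Grik4 was not tested. Its normalized counts were 9644, 8975, and 8269 for WT-Veh and 9571, 9511, and 9776 for WT-Mem mice. The KO-Veh mice had 9349, 10240, and 9502 and the KO-Mem mice 10940, 9563, and 10280. The 4 groups overlapped, with the 3 highest values in KO mice and the 2 lowest in WT-Veh mice. Its genotype difference was 0.10 (SE 0.05, 95% CI 0.00 to 0.21, adjusted p = 0.164 from limma). Grik5 was also the least variable of the 8 genes, with an SD of 0.08 on the log2 scale within groups, against 0.11 for Grik4 and 0.16 for Neto2, the most variable. The median SD was 0.10 among 9509 genes whose mean was 400 or more, to which all 8 belong.

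Grid1 (ENSMUSG00000041078, chromosome 14, 34820108 to 35583379), the gene of the delta receptor GluD1, had values of 2485, 2461, and 2090 for WT-Veh and 2574, 2375, and 2338 for WT-Mem mice. The KO-Veh mice had 2600, 2574, and 2601 and the KO-Mem mice 3031, 2529, and 2362. The KO-Veh mice were nearly identical and lay above the WT-Veh mice, while the KO-Mem mice reached from below the WT-Veh maximum to the highest value of all. The genotype difference was 0.13 (95% CI -0.01 to 0.27, adjusted p = 0.186 from limma).

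The auxiliary subunit genes did not pass the test either. Neto1 (ENSMUSG00000050321, chromosome 18, 86394952 to 86506718) had values of 3548, 3849, and 2885 for WT-Veh and 3776, 3769, and 3134 for WT-Mem mice. The KO-Veh mice had 3714, 3702, and 3461 and the KO-Mem mice 3756, 3919, and 3698, with a genotype difference of 0.09 (95% CI -0.05 to 0.24, adjusted p = 0.380 from limma). Neto2 (ENSMUSG00000036902, chromosome 8, 85636588 to 85700924) had 1918, 1903, and 1496 for WT-Veh and 1766, 1989, and 1473 for WT-Mem mice. The KO-Veh mice had 1797, 1788, and 1740 and the KO-Mem mice 1490, 1749, and 1691, with a genotype difference of -0.03 (95% CI -0.20 to 0.14, adjusted p = 0.814 from limma). In both genes, the lowest 2 values of the WT mice were those of WT-Veh replicate 3 and WT-Mem replicate 3. Of the 8 genes, 4 had their lowest value of the 12 mice in WT-Veh replicate 3 and 2 in WT-Mem replicate 3, and none had its lowest value in a KO mouse. These mice also had the highest summed level of oligodendrocyte markers of their groups (342000 and 289500), and the part of this in the low values was not tested. Without WT-Veh replicate 3, the genotype difference was 0.30 for Grik4 (adjusted p = 0.0283 from limma) and -0.09 for Neto2.

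Veh-K/W transcripts compare KO-Veh with WT-Veh mice, the difference at baseline. In the fit of these 6 mice with limma, none of the 8 genes was called (0 of 8), where 0.0283% of 17671 genes were called. Unadjusted p-values were under 0.05 for 1 of the 8 and for 14.4% of all genes. This gene was Grik4, at 0.33 on the log2 scale (SE 0.08, 95% CI 0.16 to 0.50, adjusted p = 0.145 from limma). Log2 fold changes of the other genes were 0.15 for Grid1, 0.14 for Grik2, 0.12 for Grik5, 0.09 for Grik3 and for Neto1, 0.04 for Grik1, and 0.01 for Neto2. All 8 values were above 0, with a median of 0.10 against 0.00 for all genes tested, and the median size over all genes was 0.125. Single mice decided the sign in 3 of them. Without WT-Veh replicate 3, Neto1 was at -0.03 and Neto2 at -0.11, and Grik1 was at -0.01 without WT-Veh replicate 2 and at -0.05 without KO-Veh replicate 3. The KO-Veh mice lay above the WT-Veh mice without overlap in Grik4 and Grid1, which is 2 of 8, where this held for 9.73% of all genes.

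Mem-K/W transcripts compare KO-Mem with WT-Mem mice and share no mouse with the Veh-K/W transcripts. The count was again 0 of 8 called with limma, where 0.068% of 17646 genes were called, and unadjusted p-values were under 0.05 for 1 of 8 and for 21% of all genes. Grik4 stood at 0.28 on the log2 scale (SE 0.10, 95% CI 0.05 to 0.51, adjusted p = 0.164 from limma). The call depended on KO-Mem replicate 3. Without this mouse the change of Grik4 was 0.38 with an adjusted p-value from limma of 0.0276. In that fit 1911 of 17633 genes were called, in place of 12 of 17646. Without KO-Mem replicate 1 the change of Grik4 was 0.20. The other genes were at 0.13 for Grik2, 0.11 for Grid1, 0.10 for Neto1, 0.09 for Grik5, 0.02 for Grik3, 0.01 for Grik1, and -0.08 for Neto2. In Grik4 alone, 1 of 8, the groups did not overlap, against 12.7% of all genes with higher values in KO-Mem mice.

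None of the 8 genes passed the test for an effect of memantine in either genotype. In KO-M/V transcripts (KO-Mem against KO-Veh mice) 0 of 8 were called with limma and 0 had an unadjusted p-value under 0.05, where 0% of 17707 genes were called and 8.88% had such a p-value. Log2 fold changes were 0.10 for Grik4 (95% CI -0.12 to 0.31), 0.08 for Grik5, 0.06 for Neto1, 0.03 for Grik1, 0.02 for Grid1, 0.01 for Grik2, -0.04 for Grik3, and -0.11 for Neto2 (95% CI -0.28 to 0.05, adjusted p = 0.625 from limma). In WT-M/V transcripts (WT-Mem against WT-Veh mice) 0 of 8 were called and 0 had an unadjusted p-value under 0.05, where 0.0114% of 17564 genes were called and 3.97% had such a p-value. Here the changes were 0.15 for Grik4 (95% CI -0.03 to 0.33, adjusted p = 0.978 from limma), 0.10 for Grik5, 0.07 for Grik1, 0.06 for Neto1, 0.05 for Grid1, 0.03 for Grik3, 0.02 for Grik2, and -0.03 for Neto2. No gene of the 8 had groups without overlap in either comparison (0 of 8), which was seen in 13.9% of all genes for KO-M/V and in 9.34% for WT-M/V transcripts. Averaged over both genotypes in the fit of 12 mice with limma, 0 of 8 genes were called and 0 had an unadjusted p-value under 0.05, where 0% of 17655 genes were called and 8.68% had such a p-value. The difference with memantine was 0.12 for Grik4 (95% CI -0.01 to 0.26, adjusted p = 0.611 from limma) and 0.09 for Grik5 (95% CI -0.01 to 0.19, adjusted p = 0.609 from limma). These intervals leave room for a memantine effect on Grik4 up to 1.20-fold and on Grik5 up to 1.14-fold.

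**Figure D3:**
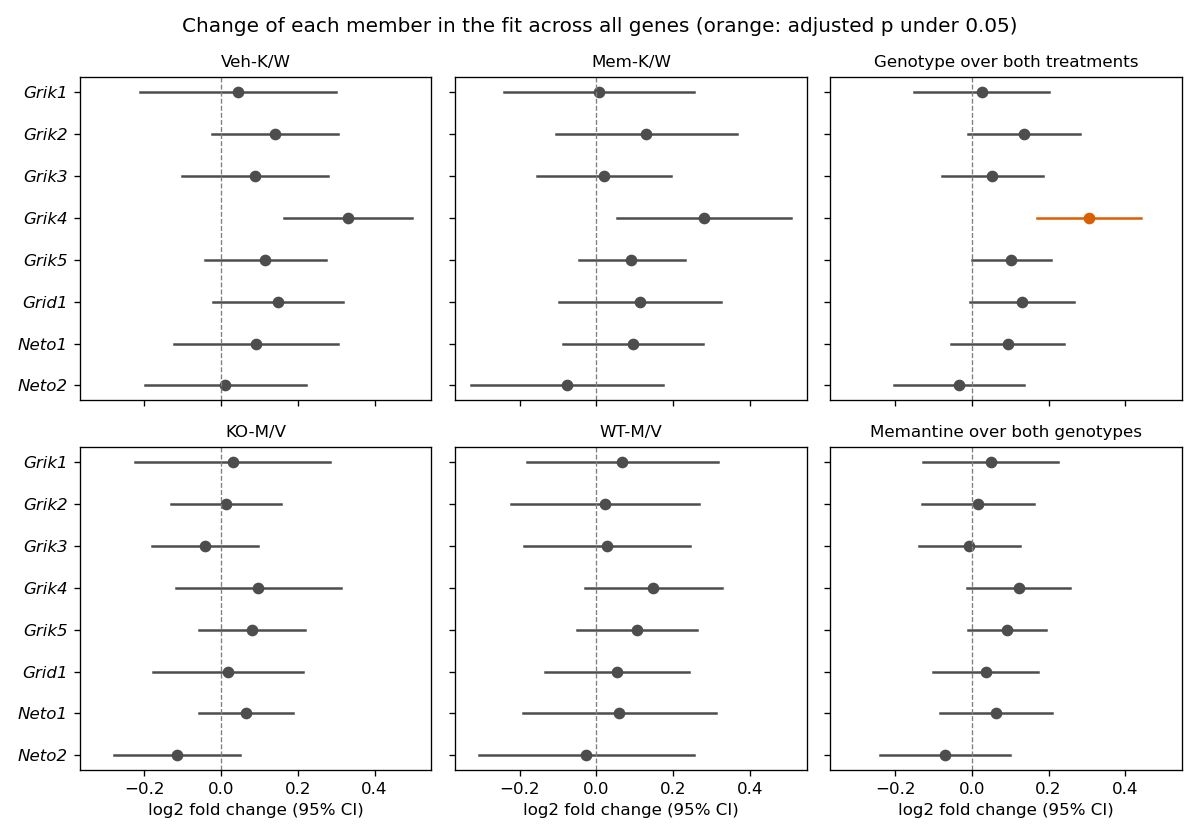
Log2 fold changes (x axes) with 95% confidence intervals of the 8 genes in 6 comparisons, from the limma fits across all genes. Upper panels are KO against WT and lower panels memantine against vehicle. The orange point, Grik4 between genotypes over both treatments at 0.31, is the one that passed the threshold.

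Whether the genotype difference changed with memantine was tested as the interaction over the 12 mice, Mem-K/W minus Veh-K/W. None of the 8 was called with limma (0 of 8, and 0 of 17655 genes, which is 0%), and the unadjusted p-value was under 0.05 in 0 of the 8 and in 4.76% of all genes. For Grik4 the interaction was -0.05 on the log2 scale (95% CI -0.32 to 0.22, adjusted p = 0.979 from limma), and it was 0.05 without KO-Mem replicate 3. The lower bound of the interval, -0.32, is as large in size as the genotype difference of Grik4.

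In KO-M/WT-V transcripts, which ask whether memantine-treated KO mice come to resemble vehicle-treated WT mice, Grik4 was 0.43 higher in KO-Mem mice (SE 0.10, 95% CI 0.20 to 0.66, adjusted p = 0.0508 from limma), just above the threshold, and Grik5 0.20 higher (adjusted p = 0.148 from limma). The count was 0 of 8 called, where 3.37% of 17662 genes were called, and 2 of 8 had an unadjusted p-value under 0.05 against 25.9%. The call of Grik4 turned on small choices, and its adjusted p-value from limma was 0.0495 with a pseudocount of 5, 0.047 with a filter at a mean of 50, and 0.00792 without KO-Mem replicate 3. In these fits 653 of 17662, 648 of 14249, and 2490 of 17666 genes were called, against 595 of 17662 in the first fit. Leaving out any of the other 5 mice raised the adjusted p-value of Grik4 from limma, to between 0.0827 and 0.177. In WT-M/KO-V transcripts, which ask whether memantine in WT mice resembles the deletion, Grik4 was lower in WT-Mem than in KO-Veh mice, at -0.18 on the log2 scale (95% CI -0.34 to -0.02, adjusted p = 0.537 from limma). Grid1 was at -0.10 (adjusted p = 0.638 from limma), and these 2 of 8 genes had no overlap, where 7.13% of all genes were lower without overlap. With limma, 0 of 8 genes were called, against 0.0227% of 17648 genes, and 1 of 8 had an unadjusted p-value under 0.05 against 8.94%. These comparisons share their mice with those above and add no independent mice.

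Levels were compared between genes per kb of exon, the union of all annotated exons of a gene in GENCODE M21. Grik5 stood highest, with 1865 ± 129.8 normalized counts per kb (SD, n = 12 mice), 3.51 times the level of Grik3, at 531.1 ± 38.67. Neto1 (431.2 ± 36.64) and Grid1 (419.6 ± 37.3) followed and were not separable, since Neto1 was the higher in 8 of 12 mice. Below them came Neto2 (282.8 ± 27.89), Grik4 (177.4 ± 24.55), Grik2 (170.3 ± 15.07), and Grik1 (77.75 ± 7.161). Grik4 and Grik2 were not separable either, with Grik4 above in 7 of 12 mice. The neighbors Grik5 and Grik3, Grid1 and Neto2, Neto2 and Grik4, and Grik2 and Grik1 were in this order in 12 of 12 mice and had ranges without overlap, and Grik3 lay above Neto1 in 12 of 12 mice with overlapping ranges. The order depends on the length used in 2 places, since with the longest annotated transcript of each gene Grik2 (239.3 per kb) lay above Grik4 (179.7) and Grid1 (437.4) above Neto1 (431.1). The level of Grik1 depends on the length most, and was 143 per kb with the longest transcript. Grik5 was at 2373 and Grik3 at 531 with that length. The ratio of 3.51 between them and all shares given below thus hold for the union of exons only.

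**Figure D4:**
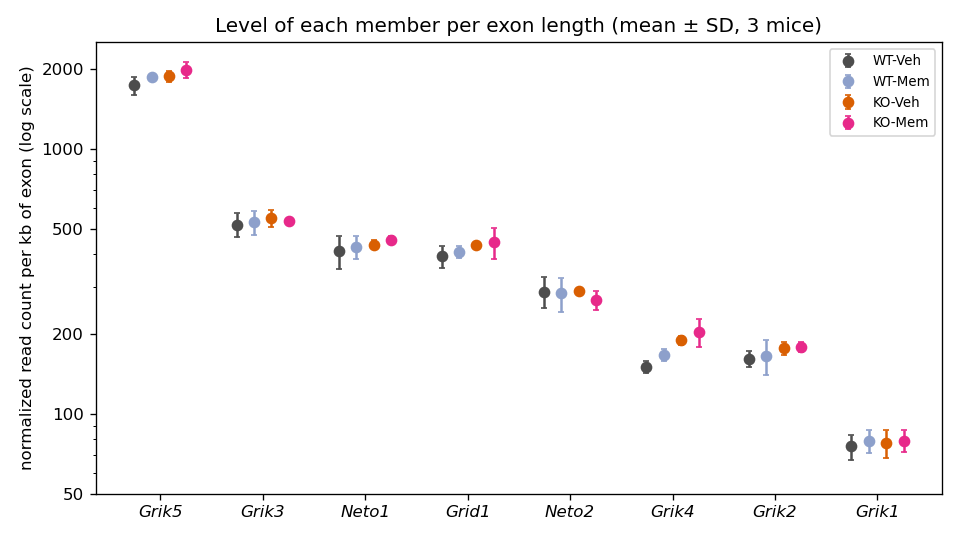
Normalized read count per kb of exon (y axis, log scale) of the 8 genes, in order of their mean over all mice. Points are group means and bars the SD of 3 mice. Grik5 is at 1865 and Grik1 at 77.75 on average, and the group means of Grik4 run from 150.4 to 203.4.

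The makeup of the kainate subunit transcripts followed from these levels. Of the summed level per kb of Grik1 to Grik5, Grik5 held 65.7% ± 0.195 in WT-Veh, 66.5% ± 2.21 in WT-Mem, 65.4% ± 2.44 in KO-Veh, and 66.6% ± 1.51 in KO-Mem mice (SD, n = 3 each), and Grik3 held from 17.9% to 19.6% on average. The share of Grik4 was 5.71% ± 0.27 in WT-Veh, 5.96% ± 0.405 in WT-Mem, 6.6% ± 0.353 in KO-Veh, and 6.82% ± 0.752 in KO-Mem mice. WT-Veh mice, at most 6.02%, lay below KO-Veh mice, at least 6.21%, while the memantine-treated groups overlapped, as KO-Mem replicate 3 was low. Grik2 held 5.87% to 6.18% and Grik1 2.65% to 2.88% on average, with the lower group means of Grik1 in KO mice and overlapping ranges. For the auxiliary genes, Neto2 made up 41.4% ± 1.08 of the Neto1 and Neto2 level in WT-Veh, 39.9% ± 1.64 in WT-Mem, 40% ± 0.542 in KO-Veh, and 37.1% ± 1.76 in KO-Mem mice. The 3 KO-Mem mice (35.1% to 38.4%) lay below each of the other mice, of which the lowest was at 38.9%. Shares were not tested, and how often such separations of groups occur among other pairs of genes was not counted. Neither Neto1 nor Neto2 was called in any of the comparisons above.

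The genes whose pattern over the 12 mice was most like that of Grik4, among 12876 others with a mean of at least 100, were Eml2, with a Pearson r of 0.977 (Spearman rho 0.965), and Rasgrf1, with 0.975 (0.986). Both were also higher in KO mice, Eml2 by 0.42 and Rasgrf1, which encodes a calcium-regulated exchange factor for Ras, by 0.30. This follows from choosing genes that track Grik4 over the same mice and is not a separate result. The best matches of Grik2 were Grin2b (0.975), the gene of the NMDA receptor subunit GluN2B, and Phc3 (0.969), and those of Grik3 were Pcdhb22 (0.966) and Snx27 (0.95). Grid1 was most like Csmd3 (0.947) and Cd2ap (0.937), Neto2 most like Fut9 (0.93) and Etnk1 (0.927), Grik5 most like Nlgn2 (0.926) and Nudcd3 (0.925), Neto1 most like Pdpk1 (0.922) and Prkar1a (0.914), and Grik1 most like Rnf144a (0.881) and Ints6 (0.876). None of these 14 genes was called between genotypes, and they were matched to genes that were not called. The values in parentheses are Pearson r over 12 mice, and they are given as a description, because they are the highest of many and the 12 mice share 1 normalization.

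Genes whose proteins handle or anchor kainate receptors were taken as a list of 17, of which 16 were in the table. Between genotypes over both treatments, 0 of the 16 were called with limma, where 10.5% of all genes were called, and 6 had an unadjusted p-value under 0.05, against 29.4% of all genes. Their median log2 fold change was 0.06, against 0.00 over all genes. Among the 3 smallest p-values were those of Kif17, which encodes a dendritic motor protein (0.14, adjusted p = 0.0812 from limma), and C1ql3, a secreted C1q-like protein (0.17, adjusted p = 0.102 from limma). Of 11 genes for delta receptor partners, 1 was called, against the same 10.5% of all genes, and the median was 0.08. This was Grid2ip, which encodes a postsynaptic scaffold protein, with 353 ± 55.99 in WT-Veh, 333 ± 37.45 in WT-Mem, 457.4 ± 80.84 in KO-Veh, and 434.1 ± 15.28 in KO-Mem mice (SD, n = 3 each). Its genotype difference was 0.38 (SE 0.10, limma, adjusted p = 0.0297). The KO mice (408 or more) lay above the WT mice (396.7 or less) without overlap, as in 1.86% of all genes tested. Its highest value, 550.7, lay in the KO-Veh group. Without KO-Veh replicate 3 the change was 0.31 with an adjusted p-value from limma of 0.0793, and 528 genes were called in place of 1856. Nrxn2, which encodes a presynaptic neurexin, came next (0.12, adjusted p = 0.116 from limma). Neither list had a called gene in any other of the comparisons described (0 in each).

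The other ionotropic glutamate receptor genes are read against the same shares of all genes, 10.5% called and 29.4% with an unadjusted p-value under 0.05. Of the 4 AMPA receptor subunit genes, 0 were called between genotypes with limma and 3 had an unadjusted p-value under 0.05, with a median of 0.10 on the log2 scale. Of the 7 NMDA receptor subunit genes, 1 was called and 2 had such a p-value, with a median of 0.04. The called gene, Grin2c, was named after its values were seen and was lower in KO mice, at -0.23 (SE 0.06, adjusted p = 0.0253 from limma). The 8 kainate, delta, and Neto genes had a median of 0.10 in the same comparison.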

How the data were processed

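Poly-A RNA of each brain was sequenced as paired-end reads. The authors deposited 1 table of normalized read counts (a signal, not whole counts) for 19312 genes and 12 mice, and the submitters' processing notes name Salmon 1.1.0, R 3.6.2, DESeq2 1.26.0, and GRCm38. The annotation release is not given in the sources used here. Total reads per mouse were not analysed here. From these deposited signal values, log2(value + 1) was fitted in limma 3.58.1 (R 4.3.3) across the genes whose mean reached 10. The 6 comparisons of groups were fitted on their own 6 mice, and genotype, memantine, and their interaction on all 12. The filter was applied to the mice of each fit, and all 8 genes passed it. Fold changes are on this scale and slightly understate those of low genes. Each sample is a separate mouse by the labels. Samples were grouped by their titles, and all table columns matched a sample. The fitting was tested on simulated data.

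The genes and lists were chosen with earlier results of these data known. All 8 genes, any called gene of the partner lists, the 3 smallest p-values of each partner list between genotypes, and the 2 genes most like each of the 8 were named. Some genes that this rule names are not reported here. Markers were checked by list. Exon lengths came from GENCODE M21, in which 19295 genes matched, and sequences from RefSeq.
Alternatives were the pseudocount, the filter, centring, a replicate block, all mice in 1 fit, and each mouse left out.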

Additional observations from a re-analysis of the deposited data

How the results depend on the processing

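The call of Grik4 between genotypes over both treatments was made under each alternative tried, with log2 fold changes of 0.27 to 0.36. Neither the pseudocount, the filter, median centring, the block, nor 1 fit for all mice turned the direction of a change printed for the 8 genes. In KO-M/WT-V transcripts, 1 of the 8 genes in place of 0 (Grik4) was called with a pseudocount of 5, a mean of at least 50, median centring, the replicate block, and 1 fit for all mice (adjusted p from limma of 0.0495, 0.047, 0.0486, 0.0394, and 0.0115). Of all genes tested, these settings called 653 of 17662, 648 of 14249, 601 of 17662, 999 of 17662, and 2067 of 17655. With mice left out, 0 to 1 of the 8 was called, and the 1 came without KO-Mem replicate 3, where 2490 of 17666 genes were called. In Mem-K/W transcripts, the count with mice left out was 0 to 1, and the 1 came without KO-Mem replicate 3, where 1911 of 17633 genes were called. The cause was not tested. Groups of 3 mice, with 1 value per mouse, limit the precision, and depth in reads is unknown.

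The number of all genes called moved more. In Veh-K/W transcripts it was 5, and 3 with a pseudocount of 0.5 or 5, 2 with a mean of at least 50, 2 in 1 fit for all mice, and 2 to 53 with mice left out. In Mem-K/W it was 12, 636 in 1 fit, and 2 to 1911 with mice left out. In WT-M/V it was 2, 1 with a pseudocount of 0.5 or 5, 0 with a mean of at least 50 or in 1 fit, and 1 to 3 with mice left out. In KO-M/WT-V it was 595, 2067 in 1 fit, and 1 to 2490 with mice left out. It ran from 1 to 5 in WT-M/KO-V, 0 to 97 in KO-M/V, 528 to 3263 for genotype, 0 to 120 for memantine, and 0 to 4 for the interaction with mice left out.

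The replicate numbers did not pair the mice, since 1 of 18 pairs with the same number had a correlation of deviations over 0.1 (range -0.33 to 0.22), and 2 of 12 mice correlated best with their own number. With the replicate block, 2 genes were called in Veh-K/W, 4 in Mem-K/W, 1 in WT-M/V, 999 in KO-M/WT-V, 2 in WT-M/KO-V, and 1728 for genotype, where the adjusted p of Grik4 from limma was 0.0196.

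Small changes that were not called turned direction with mice left out. Log2 fold changes then ran from -0.051 to 0.131 for Grik1, -0.028 to 0.18 for Neto1, and -0.106 to 0.073 for Neto2 in Veh-K/W. In Mem-K/W they ran from -0.076 to 0.052 for Grik1, -0.001 to 0.208 for Grik2, -0.067 to 0.069 for Grik3, and -0.193 to 0.024 for Neto2. In KO-M/V they ran from -0.044 to 0.125 for Grik1, -0.032 to 0.048 for Grik2, -0.091 to 0.015 for Grik3, and -0.085 to 0.095 for Grid1. In WT-M/V they ran from -0.055 to 0.154 for Grik2, -0.054 to 0.115 for Grik3, -0.027 to 0.097 for Grid1, -0.059 to 0.149 for Neto1, and -0.144 to 0.09 for Neto2. For genotype they ran from -0.022 to 0.069 for Grik1 and -0.092 to 0.017 for Neto2, and for the interaction from -0.128 to 0.05 for Grik4.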
